A study of Canis lupus familiaris with 36 samples.

Results

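BCL2 (ENSCAFG00000000068) was followed as 1 of the 30424 genes of the deposited count table, by its row across all treatments and incubation times. CLBL-1, a cell line of canine diffuse large B-cell lymphoma (DLBCL), was incubated for 24, 48 or 72 h with 1 µM ibrutinib (Ibr), an inhibitor of Bruton tyrosine kinase (BTK), with 5 µM AS-605240 (AS), an inhibitor of phosphoinositide 3-kinase (PI3K), with both at these doses (Ibr + AS), or with DMSO as control. The control medium held as much DMSO as the combination. The study does not state whether the media with 1 inhibitor held as much. The comparisons of the single inhibitors and the departure from additivity use those cells. Each of the 12 groups of treatment and time had 3 libraries, 1 from each of passages p121, p126 and p128 (replicates 1, 2 and 3), which makes 36 libraries of 1 cell line. The replicates are therefore passages of the same culture. The tests take passage as a term, so the p-values measure the spread left among libraries after passage and group, not that between dogs.

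BCL2 is the founding member of a protein family that governs the mitochondrial route of apoptosis. The protein sits in the outer mitochondrial membrane, where it binds pore formers such as BAX and the BH3-only proteins that trigger them, and it thereby keeps cytochrome c inside. In B-cell lymphoma BCL2 is known as a survival gene and as a drug target, and the B-cell receptor, BTK and PI3K stand upstream of survival signals in these cells. RNA counts show the transcript and not the protein.

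The libraries held 9941919 to 14703839 reads assigned to genes (median 11888025). BCL2 drew 122 to 456 of them per library, so that counting error alone was between 5.20% and 8.25% of the level, taken as a mean over the libraries of a group. Of 9 markers of T, myeloid and epithelial cells, 4 were expressed throughout (LYZ, NCF4, CSF2RB and ESRP1), while TCF7, CD226, IL2RB, TREM2 and GRHL2 stayed at or below 0.682 CPM (counts scaled to a common library size). Of the B-cell markers, TNFRSF13C and 4 class II genes (DLA-DRA, DLA-DQA1, DLA-DMA and DLA-DOA) were detected in every library, and the other markers fixed for B cells had no identifier paired with them. The summed level of the markers of other cells was 371 to 431 CPM in Ibr + AS against 218 to 247 CPM in DMSO at 72 h, 391 to 440 CPM against 267 to 299 CPM at 48 h, and 428 to 540 CPM against 289 to 299 CPM at 24 h, when BCL2 did not pass. The summed level of the 5 B-cell markers was 3098 to 4590 CPM in Ibr + AS against 5843 to 6391 CPM in DMSO at 72 h, 4747 to 5832 CPM against 4468 to 4720 CPM at 48 h, and 5451 to 6097 CPM against 3935 to 4003 CPM at 24 h. At 72 h the B-cell sum was also lower than in DMSO with Ibr alone (3300 to 4952 CPM) and with AS alone (4365 to 5106 CPM), where BCL2 did not pass. The sum for other cells was 297 to 358 CPM with Ibr alone and 263 to 270 CPM with AS alone. These Ibr ranges hold all Ibr libraries of that time. DLA-DRA had the highest level of the B-cell markers, with a median of 3265 CPM, and so weighs most in their sum. The part of these genes in the BCL2 result was not tested. One Ibr library at 72 h (passage p128), which the study discarded as an outlier, was left out of the tests, and its BCL2 level is given with the others. In such bulk samples fewer cells with the transcript and less transcript per cell cannot be told apart.

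BCL2 was lowest in the cells that received both inhibitors and stayed near the control with either inhibitor alone. With DMSO at 24 h the level was 21.3, 19 and 19.4 CPM in passages p121, p126 and p128. It was 22.4, 23.8 and 24.5 CPM with Ibr, 21.1, 20.01 and 21.9 CPM with AS, and 15.6, 17.8 and 20.7 CPM with Ibr + AS. At this first time the Ibr + AS libraries overlapped with those of DMSO and AS, and all Ibr libraries lay above all DMSO libraries.

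At 48 h the levels with DMSO were 29.4, 20.9 and 26.1 CPM. Passage p126 was the low one, and it was also the low one with Ibr, where the levels were 26.8, 19.1 and 24.7 CPM. With AS they were 25.6, 23.3 and 24.3 CPM. With Ibr + AS they were 15.1, 15 and 13.2 CPM, so that all 3 combination libraries lay below all 9 others of that time.

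At 72 h the levels were 31.04, 28.6 and 30.2 CPM with DMSO and 26.96, 28.7 and 27.8 CPM with AS. With Ibr they were 30.3 and 26.9 CPM, and 27.7 CPM in the library that was left out. With Ibr + AS they were 17.3, 12.2 and 11.7 CPM. The combination libraries again lay below all others of that time, and within the combination passage p121 was the high one. The order from the highest group mean to the lowest was DMSO 72 h (29.9 ± 1.24 CPM, SD, n = 3), Ibr 72 h (28.6 ± 2.44, n = 2), AS 72 h (27.8 ± 0.896, n = 3), DMSO 48 h (25.5 ± 4.25, n = 3), AS 48 h (24.4 ± 1.18, n = 3), Ibr 24 h (23.6 ± 1.07, n = 3), Ibr 48 h (23.6 ± 3.98, n = 3), AS 24 h (21.02 ± 0.959, n = 3), DMSO 24 h (19.9 ± 1.24, n = 3), Ibr + AS 24 h (18.01 ± 2.55, n = 3), Ibr + AS 48 h (14.4 ± 1.04, n = 3) and Ibr + AS 72 h (13.7 ± 3.09, n = 3). Neighbours in this order overlapped in their ranges, with 1 exception, Ibr + AS at 24 h against Ibr + AS at 48 h.

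**Figure D1:**
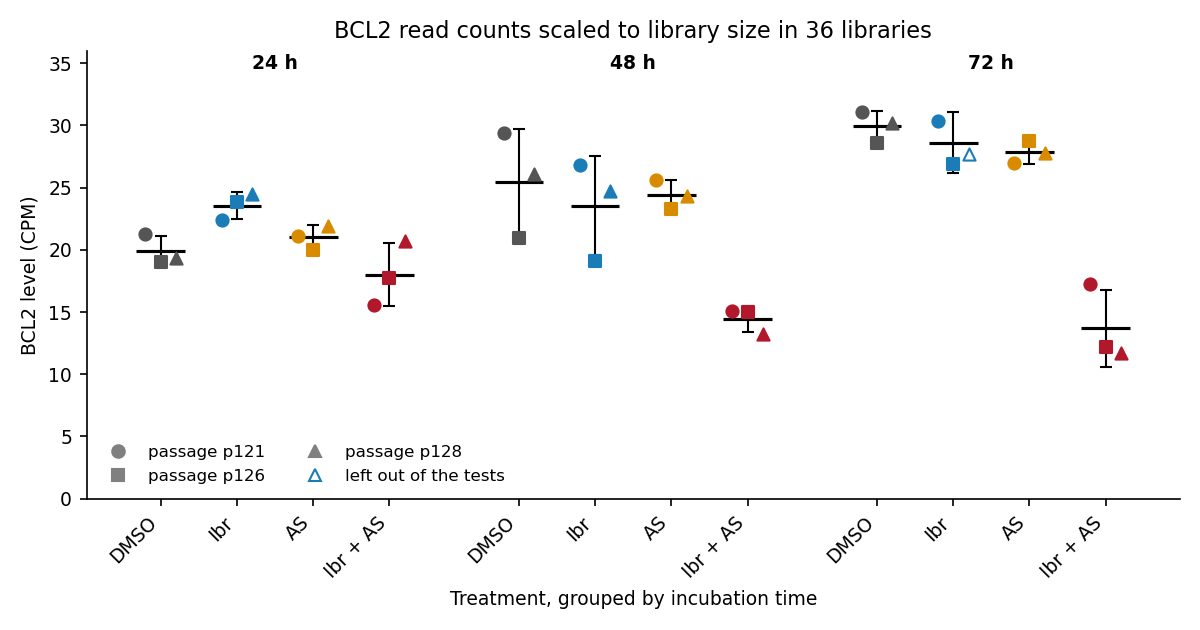
BCL2 level in CPM (vertical axis) in each library, grouped by incubation time and treatment; symbols mark the passage, black bars the mean and SD of the libraries used, and the open triangle the Ibr library left out of the tests. At 48 and 72 h the Ibr + AS libraries, between 11.7 and 17.3 CPM, lie below all others of the same time, whose lowest is 19.1 CPM.

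Differences were tested with edgeR's quasi-likelihood test on the counts, with Benjamini-Hochberg adjustment over all genes tested. A difference passed at an adjusted p of at most 0.05, and a gene was a DEG where the absolute log2 fold change (log2 FC) was also above 1. With Ibr + AS against DMSO, the log2 FC of BCL2 was −0.16 at 24 h (SE 0.12, adjusted p = 0.38) and did not pass, in a comparison where 34% of the genes passed. BCL2 fell by 0.81 on the log2 scale at 48 h (SE 0.12, adjusted p = 3.51e-08), to 0.571 times the control, when 15.3% of the genes tested passed as lower. It fell by 1.12 at 72 h (SE 0.12, adjusted p = 2.54e-13), to 0.461 times the control with a 95% interval of 0.389 to 0.547 times, and was then a DEG, as were 4.30% of the genes on the lower side. The 95% interval of the log2 FC at 72 h, −1.36 to −0.87, holds the limit of −1.

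Within passages the difference from DMSO at 48 h was −0.96 in passage p121, −0.48 in passage p126 and −0.97 in passage p128, on the log2 scale. At 72 h it was −0.84, −1.22 and −1.36 in the same order. At 24 h it was −0.45, −0.10 and 0.09. The direction was thus shared by the 3 passages at 48 and at 72 h and not at 24 h. The sequencing run is not given by the labels and was inferred from numbers in a header line of the count table. By that inference passages p121 and p128 each lie within 1 run, and the DMSO and Ibr + AS libraries of passage p126 at 48 h lie in different runs. With the inferred run as a further term the log2 FC was −0.84 at 48 h and −1.12 at 72 h.

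Neither inhibitor alone moved BCL2 past the threshold at any time. For Ibr against DMSO the log2 FC was 0.23 at 24 h (adjusted p = 0.27), −0.10 at 48 h (adjusted p = 0.73) and −0.06 at 72 h (adjusted p = 0.90) by edgeR, in comparisons where 9.13%, 10.6% and 17.6% of the genes passed. For AS against DMSO it was 0.07, −0.04 and −0.08 (adjusted p = 0.92, 1 and 0.74), and 2.52%, 3.66% and 13.2% of the genes passed. At 72 h the 95% intervals ran from −0.32 to 0.20 for Ibr and from −0.31 to 0.14 for AS, so a fall as large as that with both inhibitors lies outside them. BCL2 did not pass between the single treatments either. Ibr less AS was 0.16 at 24 h (95% interval −0.08 to 0.40), −0.06 at 48 h (−0.30 to 0.18) and 0.03 at 72 h (−0.23 to 0.29), where 0.718%, 1.67% and 1.95% of the genes passed.

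The combination lay below each single treatment. Against Ibr, BCL2 fell by 0.39 at 24 h (adjusted p = 0.0138), by 0.71 at 48 h (adjusted p = 4.10e-06) and by 1.06 at 72 h (adjusted p = 1.34e-09) by edgeR, and 9.39%, 10.2% and 3.24% of the genes passed as lower. The call at 24 h was lost without passage p121 (−0.34, adjusted p = 0.0843) and without passage p126 (−0.36, adjusted p = 0.0841). Against AS it was −0.23 at 24 h (adjusted p = 0.197), then fell by 0.77 at 48 h (adjusted p = 1.92e-07) and by 1.03 at 72 h (adjusted p = 3.90e-11), with 24.8% of the genes passing at 24 h and 14.4% and 8.25% passing as lower at 48 and 72 h. BCL2 was a DEG in both comparisons at 72 h, as were 0.927% and 1.82% of the genes on the lower side. The size lies at the limit, and without the 72 h libraries of passage p128 it was −0.95 against Ibr and −0.92 against AS. Leaving out all libraries of passage p128 gave −0.98 and −0.92, and leaving out passage p126 gave −0.93 against AS.

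The departure from additivity, the log2 FC of Ibr + AS less the sum of those of Ibr and of AS, asks whether the single effects add up to the joint one. For BCL2 it was −0.46 at 24 h (SE 0.17, adjusted p = 0.134), where 4.09% of the genes passed. At 48 h it was −0.68 (SE 0.17, adjusted p = 0.00281), and 7.60% of the genes passed on the lower side. At 72 h it was −0.97 (SE 0.18, adjusted p = 4.10e-05), and 4.06% passed on the lower side. BCL2 with both inhibitors was thus lower at 48 and 72 h than the sum of the single effects on the log2 scale. The call at 48 h was lost without passage p128 (−0.56, adjusted p = 0.14), and that at 72 h held without each passage in turn.

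**Figure D2:**
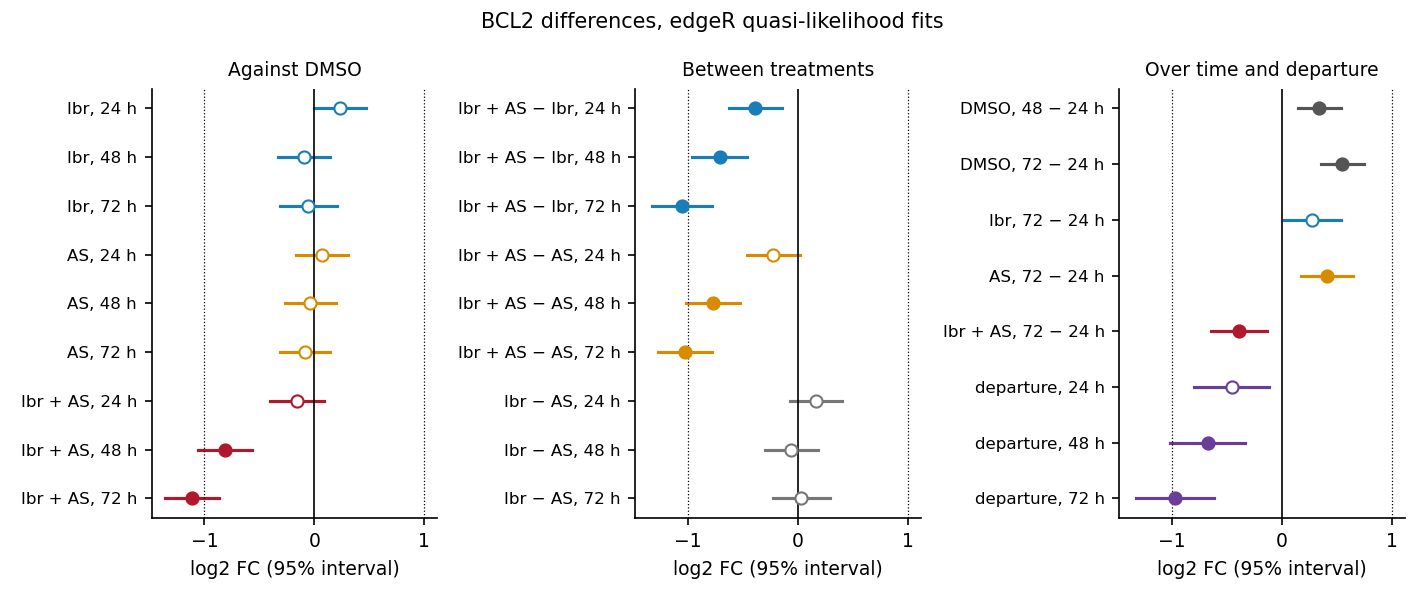
log2 FC of BCL2 (horizontal axis, points) with 95% intervals (lines) for each treatment against DMSO, between treatments, and over time together with the departure from additivity; filled points have an adjusted p of at most 0.05, and dotted lines mark a log2 FC of −1 and 1. The 3 differences that reach beyond −1 as point values are those of Ibr + AS at 72 h, −1.12 against DMSO, −1.06 against Ibr and −1.03 against AS.

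The control itself was not constant, since BCL2 rose with time in DMSO. It was higher by 0.34 on the log2 scale at 48 h than at 24 h (SE 0.10, adjusted p = 0.0104) and by 0.55 at 72 h than at 24 h (SE 0.10, adjusted p = 1.75e-07), or 1.46 times. In the fit of the 9 DMSO libraries 5.91% and 18.5% of the genes passed as higher in these comparisons. Within passages the rise from 24 to 72 h was 0.54, 0.59 and 0.64. The step from 48 to 72 h was 0.21 (adjusted p = 0.0883) and did not pass, where 29.4% of the genes did, but it passed without passage p121 (0.31, adjusted p = 0.0375). The difference at 48 h was lost without passage p121 (0.28, adjusted p = 0.201), without passage p128 (0.30, adjusted p = 0.202) and with DESeq2 (0.33, adjusted p = 0.0789).

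With AS the level also rose, with Ibr it was higher at 72 h without passing, and with Ibr + AS it went the other way. Within passages the change with Ibr from 24 to 72 h was 0.44 in p121, 0.17 in p126 and 0.18 in p128. The value of p128 comes from the library left out of the tests. From 24 to 72 h BCL2 rose by 0.41 with AS (SE 0.12, adjusted p = 0.0185, with 3.93% of the genes passing as higher), and the change was 0.28 with Ibr (SE 0.13, adjusted p = 0.296, with 4.47% of the genes passing). The call with AS was lost without passage p126 (0.36, adjusted p = 0.196) or without passage p128 (0.45, adjusted p = 0.125). With Ibr + AS it fell by 0.39 (SE 0.13, adjusted p = 0.0332, with 5.33% of the genes passing as lower). This fall was not shared by all passages, being 0.15 in passage p121, −0.54 in passage p126 and −0.82 in passage p128. It was −0.69 without passage p121 (adjusted p = 0.00034), and the call was lost without passage p126 (−0.33, adjusted p = 0.214) and without passage p128 (−0.19, adjusted p = 0.667). From 24 to 48 h the change was 0.0046 with Ibr, 0.23 with AS and −0.32 with Ibr + AS, and none passed (adjusted p = 1, 0.90 and 0.34 by edgeR), where 0.273%, 0.327% and 1.03% of the genes did. The unadjusted p of the change with Ibr + AS was 0.0139 by edgeR.

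The effect of the combination on BCL2 grew between 24 and 72 h by −0.96 on the log2 scale (SE 0.17, adjusted p = 4.27e-06), where 13% of the genes passed on the lower side. Between these times the control mean went from 19.9 to 29.9 CPM and the Ibr + AS mean from 18.01 to 13.7 CPM, although in passage p121 the level with Ibr + AS went from 15.6 to 17.3 CPM. The effect of Ibr changed by −0.29 (adjusted p = 0.345) and that of AS by −0.15 (adjusted p = 0.745), which did not pass, while 14.4% and 8.32% of the genes did. The study's sample sheet places the 72 h harvest of passage p128 more than a week after its 48 h harvest, whereas in the other passages it was the next day. Without the 72 h libraries of passage p128 BCL2 with Ibr + AS at 72 h was −1.02 against DMSO (adjusted p = 1.45e-08).

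**Figure D3:**
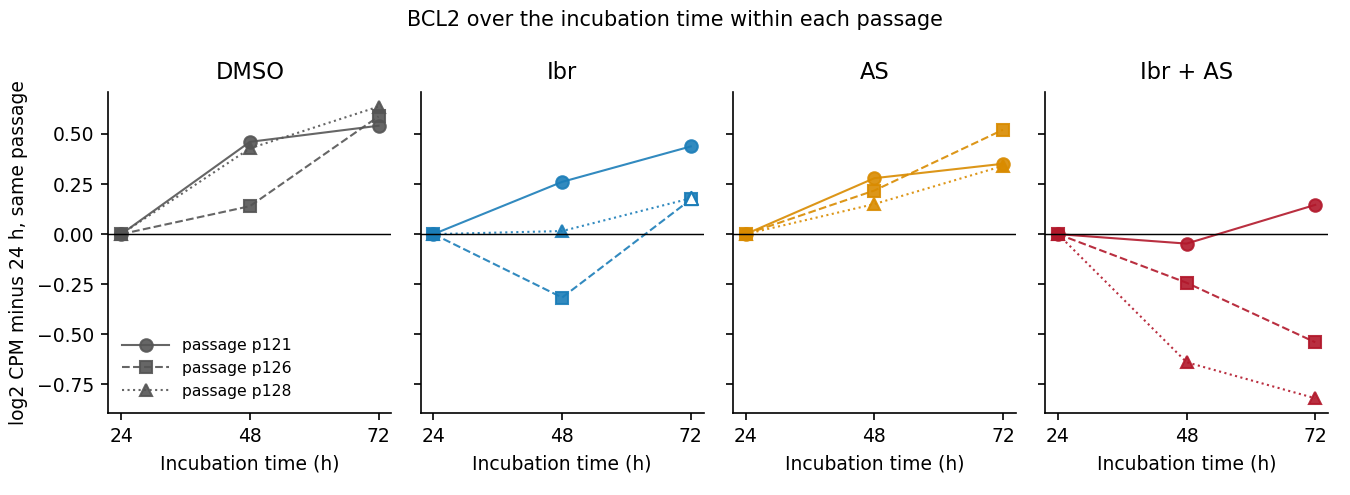
Change of BCL2 from 24 h in log2 CPM (vertical axis) over the incubation time in hours (horizontal axis), with 1 line for each passage in each treatment; the open triangle is the Ibr library left out of the tests. All DMSO, Ibr and AS lines end above 0 at 72 h, and with Ibr + AS passages p126 and p128 end at −0.54 and −0.82 while passage p121 ends at 0.15.

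Other members of the BCL2 family were read from a fixed list of 23 family members and mitochondrial partners, of which 8 could be paired with an identifier, BCL2 included. BAK1, which forms pores in the outer mitochondrial membrane, was the only other member of the family proper among them, so MCL1, BCL2L1, BAX and the BH3-only genes were not analysed here. With Ibr + AS against DMSO, BAK1 fell by 0.27 at 24 h (SE 0.09, adjusted p = 0.0193), was −0.23 at 48 h (adjusted p = 0.0558) and rose by 0.46 at 72 h (SE 0.10, adjusted p = 3.69e-05). In DMSO from 24 to 72 h BAK1 fell by 0.51 (adjusted p = 7.68e-09, with 19.5% of the genes passing as lower) as BCL2 rose. At 72 h the BAK1 level was 62.0 ± 0.715 CPM (SD, n = 3) with DMSO and 85.2 ± 11.5 CPM (n = 3) with Ibr + AS. BAK1 was also higher at 72 h with Ibr alone (by 0.46, adjusted p = 0.000483) and with AS alone (by 0.29, adjusted p = 0.0299), where BCL2 did not pass.

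Of the 7 other paired genes of that list, 0 rose and 3 fell at 24 h, 0 rose and 1 fell at 48 h, and 3 rose and 0 fell at 72 h with Ibr + AS, and none was a DEG. Their median log2 FC was −0.12, −0.04 and 0.07 at the 3 times, beside 0.03, 0.01 and 0.0029 over all genes tested. In these comparisons 17.1%, 15.4% and 14.1% of all genes tested passed as higher and 16.9%, 15.3% and 14.5% as lower. VDAC1, the main channel of the outer mitochondrial membrane, fell by 0.64 at 24 h and by 0.42 at 48 h and was −0.21 at 72 h. MTCH1, a mitochondrial outer membrane protein, rose by 0.36 at 72 h, a call lost without passage p121 (0.29, adjusted p = 0.0668) and without passage p128 (0.29, adjusted p = 0.167). BCLAF1, a nuclear protein named for its binding to BCL2, fell by 0.53 at 24 h and rose by 0.36 at 72 h, a call lost without passage p126 (0.21, adjusted p = 0.163). BCL2 was the only gene of the 8 that passed as lower at both 48 and 72 h, VDAC1 having passed at 24 and 48 h.

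Of 19 genes of survival and death signalling, 4 rose and 6 fell at 72 h with Ibr + AS, of which 1 and 3 were DEGs, beside 3.23% and 4.30% of all genes, and the median was 0.03. At 24 and 48 h 3 rose and 4 fell. Of all genes tested, 17.1%, 15.4% and 14.1% passed as higher and 16.9%, 15.3% and 14.5% as lower at 24, 48 and 72 h. TNFRSF13C, the receptor for the B-cell survival factor BAFF, rose by 1.28, 1.27 and 1.34 at 24, 48 and 72 h. TNFRSF13C is also 1 of the 5 B-cell markers, of which the other 4, the class II genes, fell at 72 h (by 0.32 to 0.76). SGK1, a kinase related to AKT, fell by 0.68 at 48 h and by 1.41 at 72 h, and the call at 48 h was lost without passage p126 (−0.69, adjusted p = 0.234). IER3, an early response gene, fell by 1.25 at 72 h, and the cytokine TNF fell by 1.04 at 72 h, a call lost without passage p126 (−0.97, adjusted p = 0.0613). IER3 and TNF rose in DMSO from 24 to 72 h, by 1.24 and 1.15. At 72 h these genes were also lower with Ibr alone, where BCL2 did not pass, SGK1 by a log2 FC of −1.38, IER3 by −1.27 and TNF by −1.48.

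Of 11 transcription factors, 4 rose and 4 fell at 72 h with Ibr + AS, with a median of −0.0045, and 4 rose and 2 fell at 24 h, 3 and 3 at 48 h. Of all genes tested, 17.1%, 15.4% and 14.1% passed as higher and 16.9%, 15.3% and 14.5% as lower at 24, 48 and 72 h. MYB, a transcription factor of blood cell progenitors, fell by 0.35 at 24 h, by 0.79 at 48 h and by 1.48 at 72 h (adjusted p = 0.0116, 9.19e-09 and 1.91e-21), and rose by 0.93 in DMSO from 24 to 72 h. MYB also fell at 72 h with Ibr alone (by 0.70, adjusted p = 5.96e-06) and with AS alone (by 0.41, adjusted p = 0.0039). MYC, a driver of cell growth, rose by 1.39 at 24 h and by 0.96 at 48 h and was −0.01 at 72 h. EGR1, an immediate early gene of receptor signalling, fell by 2.697, 2.69 and 3.99 at the 3 times. Its mean at 24 h was already 24.5 CPM with Ibr alone, beside 21.4 CPM with Ibr + AS and 118 CPM with DMSO. At 72 h it was 64.5 CPM with Ibr alone (n = 2), 20.9 CPM with Ibr + AS and 277 CPM with DMSO. The Ibr + AS libraries of 48 h ran from 4.67 to 59.3 CPM. The interferon regulatory factors IRF1 and IRF5 rose at each time, IRF1 by 1.59, 1.27 and 1.02 and IRF5 by 1.38, 1.21 and 0.65.

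Of 9 genes of PI3K, AKT and mTOR signalling, 5 rose and 2 fell at 72 h with Ibr + AS, with a median of 0.28, and 2 rose and 1 fell at 24 h, 3 and 0 at 48 h, beside the same shares of all genes, 14.1% higher and 14.5% lower at 72 h. With Ibr alone at 72 h 6 of the 9 rose and 2 fell, where 17.6% of all genes passed in either direction. PIK3R1, a regulatory subunit of PI3K, was 0.02 and 0.11 at 24 and 48 h and rose by 0.47 at 72 h (adjusted p = 2.42e-05). DEPTOR, an inhibitor of mTOR, rose by 1.17 and 1.49 at 24 and 48 h and was 0.28 at 72 h. PFKFB2, an enzyme that controls glycolysis, rose by 0.53 at 48 h, a call lost without passage p121 (0.47, adjusted p = 0.071) or without passage p128 (0.47, adjusted p = 0.124), and by 1.29 at 72 h. FNIP1, a partner of folliculin, fell by 0.89 at 72 h, and TFEB, a regulator of lysosomal genes, rose by 0.34, 0.47 and 0.66 at the 3 times. At 72 h the PFKFB2 mean was 10.7 CPM with Ibr alone (n = 2), 7.71 CPM with Ibr + AS and 3.15 CPM with DMSO. In the same order PIK3R1 was at 68.9, 67.0 and 48.5 CPM, and TFEB at 188, 190 and 120.5 CPM. FNIP1 was at 19.3, 16.1 and 29.8 CPM, and DEPTOR at 1.39, 4.52 and 3.55 CPM. The symbols of these lists came from tables in which the study had selected genes on these samples, so the counts are not independent evidence of a direction.

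**Figure D4:**
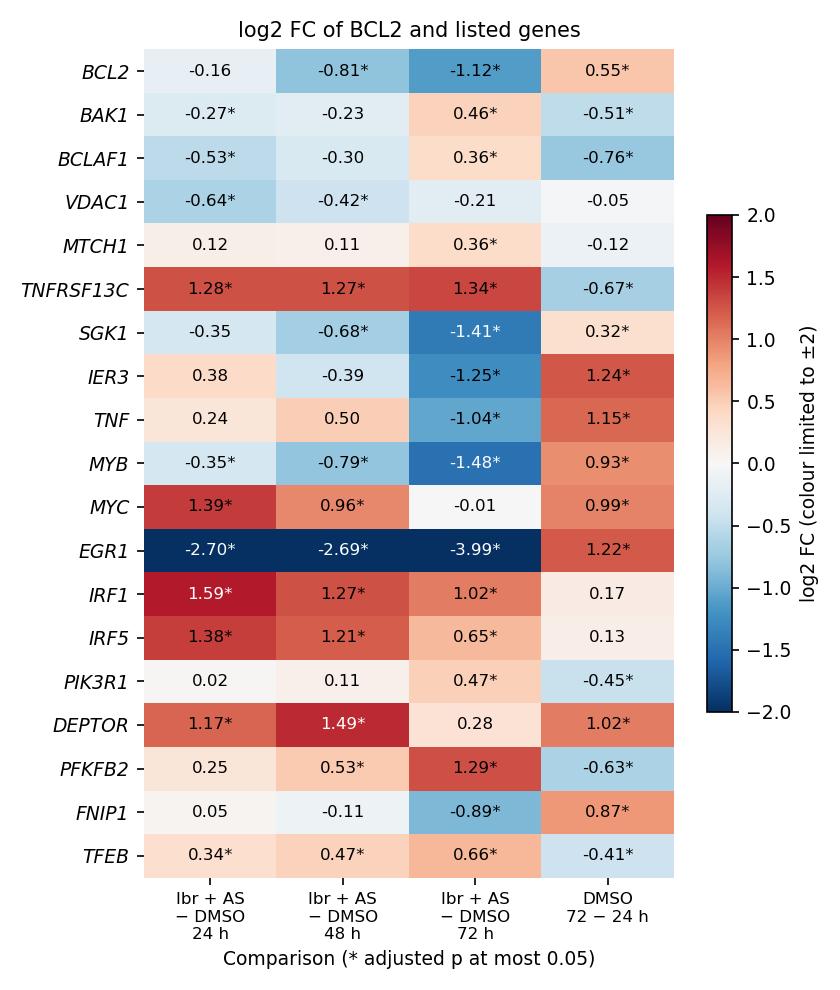
log2 FC of BCL2 and the genes named from the lists (rows) for Ibr + AS against DMSO at 24, 48 and 72 h and for DMSO at 72 h against 24 h (columns); colour and number give the log2 FC, and asterisks mark an adjusted p of at most 0.05. BCL2, SGK1, IER3, TNF, MYB, EGR1 and FNIP1 are lower with Ibr + AS at 72 h and higher in DMSO at 72 h than at 24 h. Both comparisons use the DMSO libraries of 72 h, with opposite sign, so opposite directions are partly built in.

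The genes whose levels ran most like that of BCL2 were sought by Pearson's r of log2 CPM with BCL2 over the 35 libraries, among 10784 genes that averaged 1 CPM or more. These libraries share passages, treatments and times, so r is a description and carries no test. The Ibr + AS libraries are among them, so the directions of genes picked by r follow in large part from that choice. Their adjusted p with Ibr + AS is therefore no independent evidence. The median r was 0.03, and 44 genes lay above 0.8 and 34 below −0.8. Of the 878 genes with a symbol, MYB had the highest r, 0.87, the third highest of all genes. It was followed by BEND4 (0.81), PHACTR2 (0.80), TMEM263 (0.80) and STX7 (0.80), a syntaxin of endosomes. CRELD2, a secreted protein of the endoplasmic reticulum, had the lowest r of all genes, −0.88, followed by SPRYD4 (−0.81), RAC2 (−0.80), the endoplasmic reticulum protein DERL1 (−0.79) and GPSM3 (−0.78). CRELD2 with Ibr + AS was 0.12 at 24 h (adjusted p = 0.499), rose by 0.58 at 48 h (adjusted p = 1.56e-05) and by 1.06 at 72 h (adjusted p = 4.35e-13), and fell by 0.55 in DMSO from 24 to 72 h. All 5 genes with the highest r fell with Ibr + AS at each of the 3 times. Of the 5 with the lowest, DERL1 rose at 72 h alone (by 0.31), a call lost without passage p121 (0.27, adjusted p = 0.0651) and without passage p128 (0.26, adjusted p = 0.218), and SPRYD4 rose by 0.45 at 48 h, a call lost without passage p128 (0.42, adjusted p = 0.0628).

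**Figure D5:**
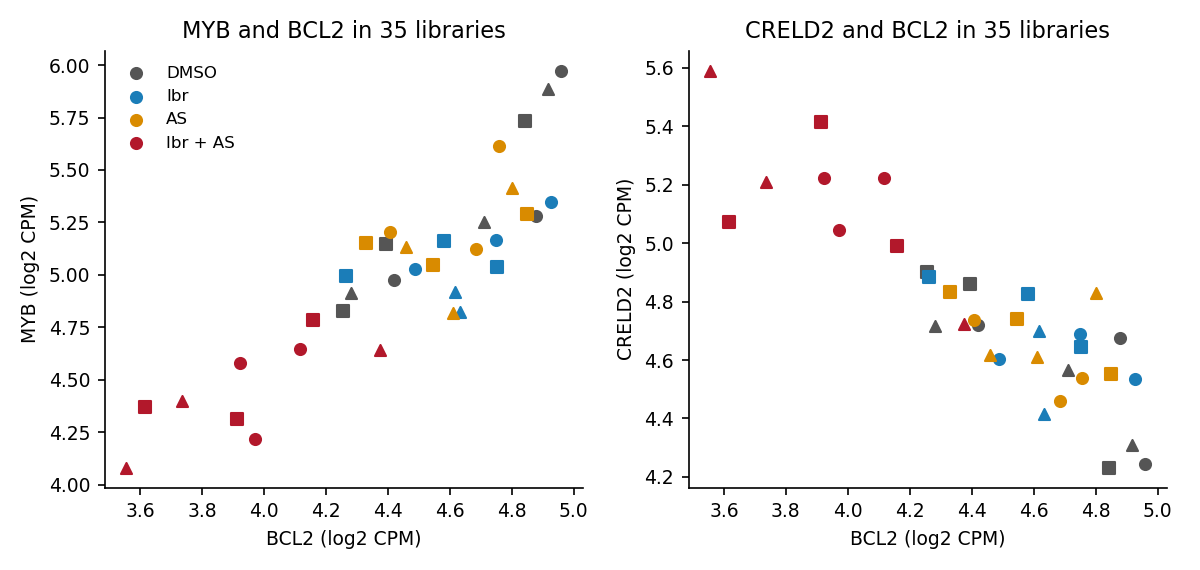
Levels of MYB (left) and CRELD2 (right) against that of BCL2, all in log2 CPM, in the 35 libraries of the tests; colours mark treatments and symbols the passages (circle p121, square p126, triangle p128). MYB runs up with BCL2 (r = 0.87) and CRELD2 runs down (r = −0.88), with the Ibr + AS libraries at the low end of BCL2.

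The genes that flank BCL2 on the chromosome were taken in the order of the RefSeq annotation of assembly UU_Cfam_GSD_1.0, since its coordinates are not those of the CanFam3.1 assembly the reads were mapped to. Of the 20 annotated protein-coding genes, 10 on each side, 8 could be paired with an identifier. With Ibr + AS, 1 of the 8 rose and 3 fell at 24 h, 1 rose and 2 fell at 48 h, and 0 rose and 4 fell at 72 h, where 17.1%, 15.4% and 14.1% of all genes passed as higher and 16.9%, 15.3% and 14.5% as lower. The nearest gene on one side, KDSR, an enzyme of sphingolipid synthesis, rose by 0.59 at 24 h and by 0.44 at 48 h and was 0.10 at 72 h, the call at 48 h being lost whichever of the passages was left out (0.37 to 0.49). The nearest on the other, PHLPP1, a phosphatase of AKT, was 0.18 and −0.03 and fell by 0.29 at 72 h, a call lost without passage p121 (−0.23, adjusted p = 0.225) or without passage p128 (−0.30, adjusted p = 0.19). ZCCHC2, the second gene on that side, fell by 0.68, 0.72 and 0.53, and PIGN, an enzyme of anchor lipid synthesis and the fifth, fell by 0.53 at 24 h and 0.44 at 72 h, the latter lost without passage p128 (−0.38, adjusted p = 0.079). VPS4B and RELCH did not pass at any of the 3 times, with log2 FC between −0.18 and 0.10. SERPINB2, the ninth gene on the side of KDSR, drew 2 to 8 reads per library with Ibr + AS and 30 to 55 with DMSO, and TNFRSF11A drew 0 to 2 and 2 to 5. ZCCHC2 and SERPINB2 thus passed as lower at 48 and 72 h as BCL2 did, whereas KDSR passed as higher at 48 h and the other 5 did not pass at that time. Which strand column of the counts was deposited is not stated, so reads of overlapping genes on opposite strands could not be told apart.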

How the data were processed

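RNA of 36 CLBL-1 libraries was sequenced by the authors as single-end reads of poly-A RNA. Per the labels and the study's methods, reads were mapped to CanFam3.1 with STAR 2.7.5a, and the deposited values are raw counts per Ensembl gene, pooled over 4 lanes, with the strand setting not given in the sources used here. Groups and passages came from the labels. 1 DMSO library at 24 h is titled passage p126 and has passage p128 in its passage field, which was used. Counts were analysed with edgeR 4.0.16 in R 4.3.3 (robust quasi-likelihood, TMM, terms passage and group), on genes with at least 2 reads: 18670 genes in 35 libraries and 16468 in the separate fit of the 9 DMSO libraries. The study's restriction to protein-coding genes was not applied. CPM used a prior count of 1 for log2 values. Passage numbers come from the labels and mark a shared culture, so the block stands in all main fits; residuals of same-passage libraries had a median r of 0.09 (187 pairs), against −0.03 for other pairs (374). No replicate pair was identical or within sampling noise (chi-square per degree of freedom 1.87 to 26.9). Symbols were taken from 1068 identifier and symbol pairs in given parts of the supplementary tables, as the RefSeq table held 0 Ensembl identifiers. Genes named were, from each list, up to 4 with the largest changes past the threshold for Ibr + AS at 48 or 72 h, with BAK1, MYB, MYC and PIK3R1, the 5 genes of highest and 5 of lowest r, and the paired neighbours. The gene, lists and rules were chosen with earlier results of these data known. The model code was tested on simulated data. Alternatives were DESeq2 1.42.0, another scaling, another filter, no block, each passage left out and all 36 libraries; the inferred run term, the other passage label and the fit without the late harvest were chosen after seeing the data.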

Additional observations from a re-analysis of the deposited data

Results flagged for a closer look

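The departure of BCL2 from additivity differed from 0 by a test of the difference itself at 48 h (−0.68, SE 0.17, adjusted p = 0.00281) and at 72 h (−0.97, SE 0.18, adjusted p = 4.10e-05) in the edgeR fit. The effect of Ibr + AS on BCL2 at 72 h also differed from that at 24 h, by −0.96 (SE 0.17, adjusted p = 4.27e-06). The 3 differences draw on the same DMSO and Ibr + AS libraries.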

How the results depend on the processing

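The fall of BCL2 with Ibr + AS at 48 and 72 h, against DMSO and against each inhibitor, held its call under all 11 alternatives (−0.96 to −0.74 at 48 h and −1.31 to −1.01 at 72 h against DMSO). The size stayed beyond −1 at 72 h in 11 of 11 alternatives against DMSO, 9 of 11 against Ibr and 8 of 11 against AS. Without the replicate block the call was lost for DMSO at 48 h against 24 h (0.35) and for Ibr + AS at 72 h against 24 h (−0.38), and the block changed no other BCL2 call. DMSO at 48 h against 24 h also lost it with DESeq2 (0.33), in 1 fit of 35 libraries (0.33) and with passage p126 for the library of doubtful label (0.29). Its range without a passage was 0.28 to 0.44. DMSO at 72 h against 48 h passed with filterByExpr (0.24), and its range without a passage was 0.13 to 0.31. AS at 72 h against 24 h was lost with the inferred run term (0.37), with 0.36 to 0.45 without a passage. Ibr + AS at 72 h against 24 h was lost without the 72 h libraries of passage p128 (−0.27), with −0.69 to −0.19 without a passage. Leaving out a passage gave −0.45 to −0.34 for Ibr + AS against Ibr at 24 h and −0.74 to −0.56 for the departure at 48 h. The sign turned, with no call on either side, for AS against DMSO at 24 h (−0.016 to 0.12 without a passage) and 48 h (−0.13 to 0.012), Ibr against AS at 48 h (−0.12 to 0.038) and 72 h (−0.029 to 0.10), and Ibr at 48 h against 24 h (−0.14 to 0.15, −0.00082 without passage p128, −0.0073 with all 36 libraries and −0.0095 without the 72 h libraries of passage p128). Of the 10 genes most like BCL2, 6 were shared with Spearman's rank correlation, 3 with means of the 12 groups, and 6 without passage p126 or p128. The cause of these changes was not tested. Named genes kept their call in 528 of their alternatives and lost it in 22. The scalings moved the median of all genes by at most 0.04. With 122 to 456 reads of BCL2 per library and 3 passages a group, the 95% intervals of the treatment differences remain wide beside the changes of the single inhibitors.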
